A study of Homo sapiens with 36 samples.

Results

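Upstream antisense clusters are stretches of crosslinked RNA just upstream of a gene start, transcribed from the strand opposite to the gene. They were taken as PAR-CLIP clusters whose midpoint lay 1 to 3000 nt upstream of the start of a GENCODE 44 protein-coding gene on the other strand, and in no protein-coding gene body on their own strand. 1920 of the 278185 clusters in 18 lists met this rule, upstream of 385 of 20046 genes. When overlapping clusters of the same strand were merged, they formed 621 regions, of which 309 came from 1 list only.

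Most active mammalian promoters are transcribed in both directions. The upstream RNA, known as a promoter upstream transcript or upstream antisense RNA, is usually short, is ended early at polyA signals close to the promoter, and is quickly degraded by the nuclear exosome. Where it escapes decay it may be annotated as a divergent transcript (names ending in -DT) or as an antisense RNA gene (-AS). SCAF4 and SCAF8 are related proteins that bind RNA and the C-terminal domain of RNA polymerase II, and are known for keeping the polymerase from stopping at early polyA sites inside genes.

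The lists came from HEK293 Flp-In T-REx cells, a human embryonic kidney line carrying a single integration site for transgenes. A line with inducible FLAG-SCAF4 and a line with inducible FLAG-SCAF8 were given 100 ng/mL doxycycline according to the labels, and the parental line, labelled with none, had no tagged protein. The study's methods differ here, with a higher dose given to the parental cells as well. All were labelled WT for CRISPR status, grown in 100 μM 4SU (4-thiouridine, a crosslinkable uridine) overnight with 500 μM for the last 2 h, and irradiated at 365 nm with 2000 J/m2. Each line gave 3 replicates of FLAG IP and of input, RNA of the same extract taken before the IP, and the FLAG IP of parental cells is called control IP. The tagged proteins were made from a transgene on top of the cells' own, and the deposited lists hold no measure of their level. The study calls its replicates biological, but the labels do not say how they were grown, so p-values measure the spread between these lists.

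List sizes differed widely. The SCAF4 IP lists held 18991, 54404 and 33962 clusters, the SCAF8 IP lists 25189, 18287 and 41502, the control IP lists 9638, 2314 and 1621, and the 9 input lists 4567 to 12493. Replicate 1 was sequenced with longer reads than the others. Read depth is unknown, and the lists show where clusters were called, not how many reads lay in them.

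The regions that turned up most often after IP and never in an input or the control IP mostly lay over annotated divergent or antisense RNA genes. The sequences of 8 regions are shown, 3 found in all 6 SCAF4 and SCAF8 IP lists, 2 found in 5, 1 found with SCAF4 only, 1 with SCAF8 only, and 1 found in all 9 inputs for contrast. Each is 100 nt of the GRCh38 transcribed strand around the stretch shared by most lists, 5′ to 3′, with CGG and CGA in capitals, the first motif that the study assigns to SCAF binding.
NIPBL, chr5:36876049-36876148, minus strand: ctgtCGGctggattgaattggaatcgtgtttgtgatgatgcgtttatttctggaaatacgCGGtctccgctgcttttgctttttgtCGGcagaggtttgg
EHMT1, chr9:137618546-137618645, minus strand: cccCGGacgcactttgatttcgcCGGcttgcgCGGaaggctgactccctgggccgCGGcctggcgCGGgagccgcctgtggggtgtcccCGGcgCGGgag
TMEM147, chr19:35544858-35544957, minus strand: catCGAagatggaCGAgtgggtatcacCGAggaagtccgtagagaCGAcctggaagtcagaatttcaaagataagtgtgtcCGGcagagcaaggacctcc
NRF1, chr7:129611349-129611448, minus strand: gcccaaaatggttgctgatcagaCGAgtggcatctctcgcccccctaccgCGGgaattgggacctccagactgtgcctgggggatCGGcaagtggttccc
P4HB, chr17:81863110-81863209, plus strand: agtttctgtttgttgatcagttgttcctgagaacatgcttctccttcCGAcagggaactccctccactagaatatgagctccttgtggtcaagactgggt
PSMC3IP, chr17:42577996-42578095, plus strand: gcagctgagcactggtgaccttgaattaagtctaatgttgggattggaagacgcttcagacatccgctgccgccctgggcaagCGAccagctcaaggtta
ZNF461, chr19:36669263-36669362, plus strand: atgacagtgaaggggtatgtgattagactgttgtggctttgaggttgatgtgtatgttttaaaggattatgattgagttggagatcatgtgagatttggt
CCDC107, chr9:35657810-35657909, minus strand: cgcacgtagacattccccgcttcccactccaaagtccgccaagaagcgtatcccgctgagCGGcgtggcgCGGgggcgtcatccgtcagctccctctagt

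The stretch upstream of EHMT1 held 7 CGG or CGA matches at a GC content of 76%, that of TMEM147 5 at 52%, and those of NIPBL and NRF1 3 each at 47% and 62%. The stretch found with SCAF8 only, upstream of ZNF461, held 0 matches at a GC content of 38%. The stretch in the inputs lies in RMRP, the RNA subunit of RNase MRP, and was covered by clusters of 17 of 18 lists. The 5 stretches found in at least 5 IP lists thus ranged from 1 to 7 matches and from 47 to 76% in GC content.

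Upstream of NIPBL, the gene of the cohesin loader, the region at chr5:36875967-36876294 lay over NIPBL-DT, 612 nt from the gene start at its nearest midpoint. Clusters covered 220, 219 and 129 nt in the SCAF4 IP lists and 307, 136 and 305 nt in the SCAF8 IP lists. The region upstream of EHMT1, a histone H3K9 methyltransferase gene, lay over ARRDC1-AS1, with 190, 220 and 253 nt after SCAF4 IP and 127, 174 and 222 nt after SCAF8 IP. The region upstream of TMEM147, which encodes a membrane protein of the endoplasmic reticulum, lay over TMEM147-AS1, with 147, 150 and 140 nt after SCAF4 IP and 153, 146 and 186 nt after SCAF8 IP. All 3 were empty in the 3 control IP and 9 input lists, which the rule that named them requires. That rule also sorts on the number of IP lists. The pattern is thus a description, and how often other regions of the series show it is not given here.

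A further 9 regions were named by the same rule, each in 5 of the 6 IP lists and in no input or control IP list. They lay over TMEM161B-DT, ZDHHC12-DT, UBL7-DT, FGD5-AS1 (upstream of NR2C2, a nuclear receptor gene), STX18-AS1, SLFNL1-AS1, the pseudogene FAM185BP (upstream of CCDC146), and the unnamed genes ENSG00000273329 (upstream of NRF1, a transcription factor gene for mitochondrial proteins) and, at its edge, ENSG00000278876 (upstream of P4HB, which encodes protein disulfide isomerase). In 4 of them (upstream of TMEM161B, ZDHHC12, NRF1 and P4HB) the missing list was of replicate 1. The regions upstream of ZDHHC12, P4HB, CCDC146 and SLFNL1 had all 3 SCAF8 IP lists and 2 of SCAF4, and the other 5 the reverse.

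**Figure D1:**
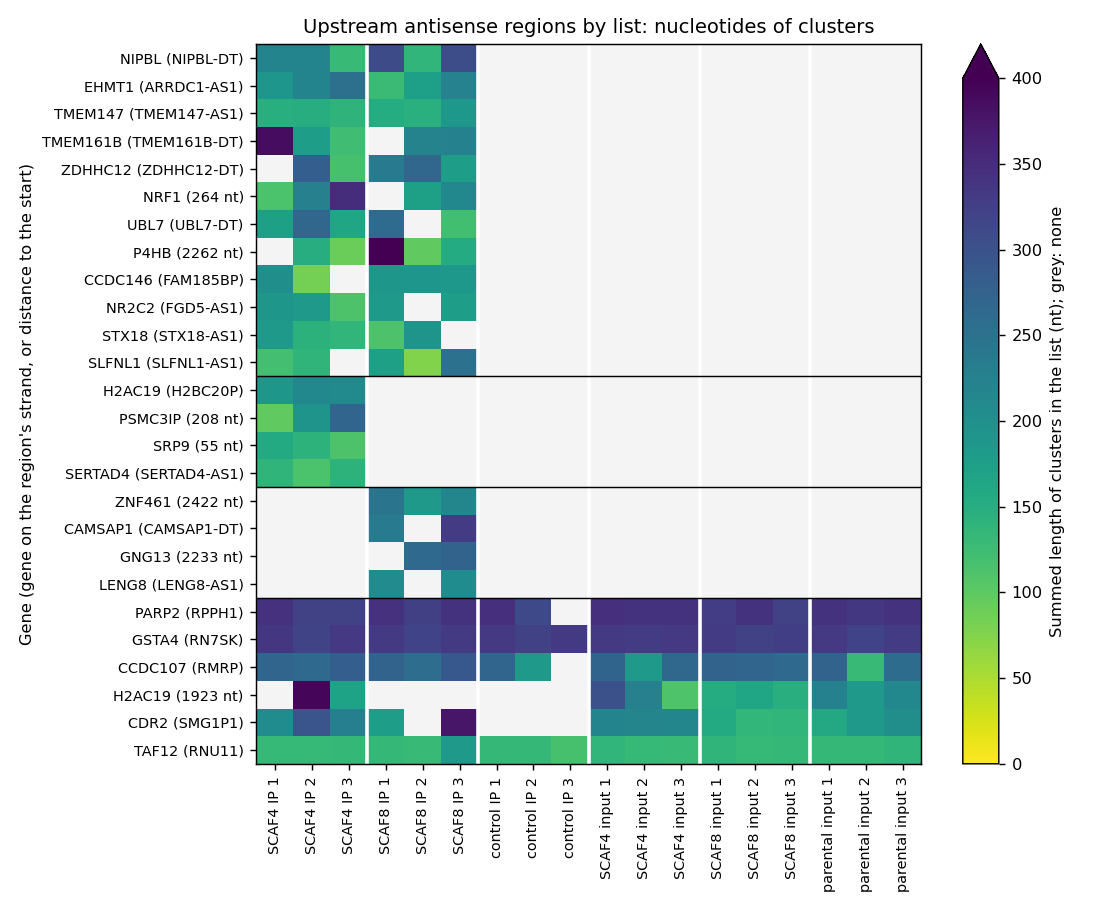
Named upstream antisense regions (rows, by the gene whose start they face) in each of the 18 lists (columns, with the replicate number); colour gives the summed cluster length in nt on a scale that ends at 400 nt, and grey marks none. The upper 12 rows are filled in 5 or 6 of the 6 IP lists and in none of the inputs, the next 8 in IP lists of 1 protein only, and the lowest 6 in all 9 inputs.

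To set such regions apart from RNA that is crosslinked without the tagged proteins, a consensus was built from regions with clusters of at least 2 lists, in no control IP list and in at most 1 of the 9 inputs. With lists of both proteins pooled, 193 of 621 regions passed (31.1%), and 33.5% of all 82455 merged regions of the series did. For SCAF4 alone 101 passed (16.3%, background 21.3%) and for SCAF8 alone 73 (11.8%, background 11.8%). The members' shares lay at or below the background, which is a comparison of shares with no test. 35 regions were in both consensus sets, 34.7% of the SCAF4 set and 47.9% of the SCAF8 set, and among all merged regions the shares were 32.0% and 58.1%.

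Of the 193 pooled regions, 5 had clusters of all 6 IP lists, 13 of 5, 23 of 4, 48 of 3 and 104 of 2. They lay upstream of 141 genes, 34 of which had at least 2. 136 regions held clusters of both proteins, 34 of SCAF4 only and 23 of SCAF8 only, and 164 overlapped no input list. 105 had a midpoint within 1000 nt of the gene start. 108 overlapped a lncRNA gene on their strand, 20 of them a -DT gene, 39 an -AS gene and 7 a small nucleolar RNA host gene (SNHG), and 76 overlapped no annotated gene. How the pooled regions of the whole series split in these ways is not given here, so none of these counts is particular to upstream antisense regions. The sets of single proteins changed with the lists used. Without replicate 2, which holds the largest SCAF4 list, the SCAF4 set fell to 32 regions. Without replicate 3, which holds the largest SCAF8 list, the SCAF8 set fell to 15. Both remaining lists of a protein were then needed, so the rule was also stricter, and the part of list size was not tested.

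The genes with most pooled regions were TMEM147 with 5, and APRT, CEBPB and DNASE1L2 with 4 each. Upstream of CEBPB, a bZIP transcription factor gene, all 4 regions lay over CEBPB-AS1 and held clusters of SCAF4 IP replicates 2 and 3 only, with 206 and 134 nt in the region nearest to the start, 586 nt away. Upstream of APRT, the gene of adenine salvage, the nearest region had 183 and 177 nt in SCAF4 IP replicates 2 and 3 and 206 nt in SCAF8 IP replicate 3. Upstream of DNASE1L2, a DNase gene, the region with the longest clusters had 523 and 330 nt in SCAF4 IP replicates 2 and 3 and 284 and 368 nt in SCAF8 IP replicates 2 and 3. None of the regions of these 3 genes had a cluster in a replicate 1 list of either protein, and none had one in an input or control IP list. 

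Some of these regions have a neighbour that the rule leaves in place. The 4 DNASE1L2 regions lay inside E4F1, antisense to it, with the nearest midpoint 3804 nt past the end of ECI1 on their own strand, and the midpoint nearest to APRT lay 2866 nt past the end of CDT1 on its strand. All 5 TMEM147 regions lay antisense inside GAPDHS, 4900 to 7062 nt past the end of ATP4A. The nearest protein-coding gene end before the CEBPB regions on their strand was 395864 nt away. Among the 193 pooled regions, 39 lay inside another protein-coding gene on the opposite strand, 61 lay within 10000 nt past the end of a protein-coding gene on their own strand, and 118 had neither. RNA from the promoter and RNA running on from such a gene end cannot be told apart in these lists.

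Regions with clusters of 1 protein only were named by the same sorting. With SCAF4 only, in all 3 lists, were regions upstream of H2AC19 (188, 214 and 209 nt), a histone H2A gene, PSMC3IP (98, 193 and 270 nt), a cofactor gene of meiotic recombination, SRP9 (155, 142 and 112 nt), which encodes a signal recognition particle protein, and SERTAD4 (138, 114 and 141 nt). With SCAF8 only, in all 3 lists, was the region upstream of ZNF461, a zinc finger gene, with 246, 185 and 216 nt. The regions upstream of CAMSAP1, GNG13 and LENG8 had 2 SCAF8 lists. An empty list of this kind sets only that no cluster was called there. Other regions upstream of H2AC19 and ZNF461 held clusters of both proteins, so the pattern is that of a region and not of a promoter. H2AC19 also has a near-identical copy, H2AC18, and the alignment could place a read of one on the other. A long region upstream of H2AC18, 213 nt from its start, had clusters of 3 SCAF4 IP, 2 SCAF8 IP, 2 control IP and 6 input lists. The pattern at H2AC19 is thus uncertain. 

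The regions found most often in the inputs were of another kind. 43 regions had clusters of at least 5 of the 9 inputs (6.92%, background 5.02%), and 23 of these lay over a tRNA gene, 11 over a small RNA gene, 5 over another noncoding gene and 4 over none. 17 regions were in all 9 inputs, 11 of them over tRNA genes. The 6 described next are those of the 17 with the longest summed input clusters, none over a tRNA gene. The region upstream of PARP2, a gene of DNA repair, is RPPH1, the RNA of RNase P, with 323 to 345 nt in every input. That upstream of GSTA4 is RN7SK, the 7SK RNA that holds back the elongation factor P-TEFb, with 319 to 333 nt in every input and 323 to 333 nt in the control IPs. That upstream of CCDC107 is RMRP (130 to 273 nt in the inputs), and that upstream of TAF12 is RNU11, the U11 RNA of the minor spliceosome (131 to 138 nt). These were also in all 6 SCAF4 and SCAF8 IP lists. They are annotated genes of their own, within the distance limit of a coding gene on the other strand. The remaining 2 of the 6 named input regions lay upstream of H2AC19, with clusters of 2 SCAF4 IP lists and no SCAF8 IP list, and of CDR2, over the pseudogene SMG1P1, with clusters of 5 IP lists.

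**Figure D2:**
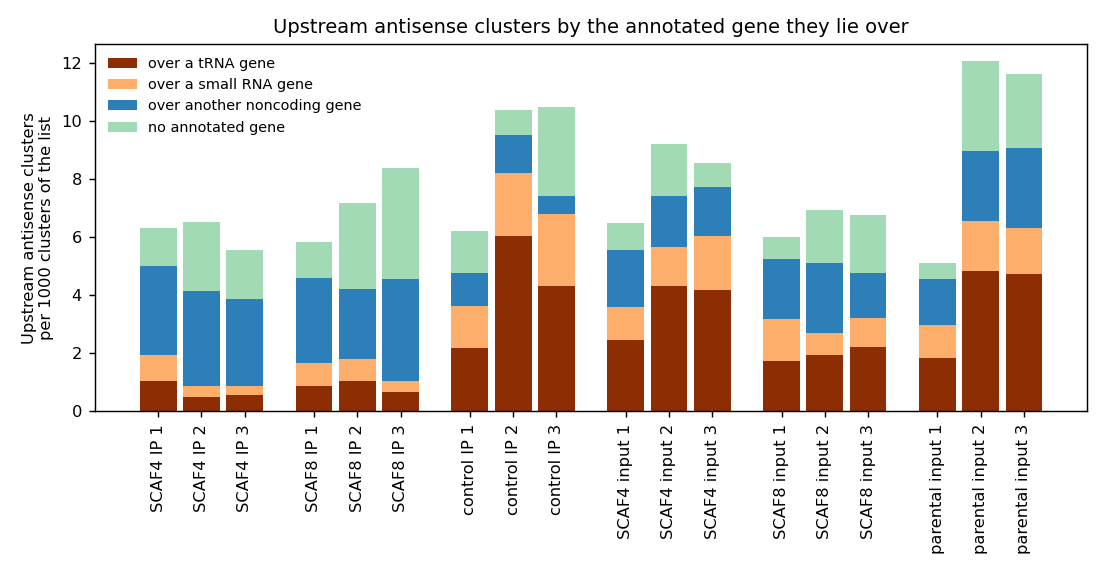
Upstream antisense clusters per 1000 clusters in each of the 18 lists (bars, with the replicate number), stacked by the annotated gene they lie over. Clusters over tRNA genes make up 0.515 to 1.05 per 1000 in the SCAF4 and SCAF8 IP lists and 1.75 to 4.82 per 1000 in the inputs.

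All members were sorted by what they lay over, a split chosen after these values had been seen. 374 clusters (33 regions) overlapped a tRNA gene, 208 (21 regions) a small RNA gene such as a snRNA, snoRNA or RNA of a ribozyme, 760 (319 regions) had their midpoint in another noncoding gene, and 578 (248 regions) in no annotated gene on their strand. The number of clusters over tRNA genes was in the same range after IP as in the much shorter input lists. It was 19 to 28 in the 6 SCAF4 and SCAF8 IP lists, with 28 in each of the largest 2, and 16 to 29 in the inputs. In the control IPs it was 21, 14 and 7, lowest in the smallest list. Per 1000 clusters the 6 IP lists had a mean of 0.786 ± 0.237 (SD) and the 6 inputs of the same lines one of 2.81 ± 1.14 (SD), without overlap. Clusters over other noncoding genes went the other way, 3.03 ± 0.376 (SD, n = 6) per 1000 after IP and 1.91 ± 0.313 (SD, n = 6) in these inputs. The lowest IP list lay just under the highest input. Those over no annotated gene were 2.23 ± 1.01 and 1.36 ± 0.565 (SD, n = 6 each). List size moved with both differences, and its part was not tested.

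Over all members, the share of upstream antisense clusters overlapped between the IPs and their background. SCAF4 IP lists had 0.632%, 0.653% and 0.557% of their clusters there, and SCAF8 IP lists 0.584%, 0.716% and 0.836%. Control IP lists had 0.623%, 1.04% and 1.05%, SCAF4 inputs 0.649%, 0.919% and 0.855%, SCAF8 inputs 0.601%, 0.695% and 0.677%, and parental inputs 0.512%, 1.20% and 1.16%. The lists of lowest share were those of the parental input and SCAF4 IP, and the ranges of the SCAF4 and SCAF8 IP lists each overlapped those of their input and of the control IP. The 95% Wilson interval ran from 0.588 to 0.724% in the largest list and from 0.656 to 1.67% in the smallest, counting error only. On the log2 scale the mean of SCAF4 IP minus SCAF4 input was −0.38 and that of SCAF8 IP minus SCAF8 input was 0.10, with two-sided exact permutation p of 0.2 and 0.5, where 3 lists against 3 can reach 0.1 at the lowest. Both IPs against their own inputs differed by −0.14 (exact permutation p = 0.294, 0.45 after Benjamini-Hochberg adjustment over 6 comparisons), and against the control IP by −0.42 (exact permutation p = 0.0833, adjusted 0.45). SCAF4 IP minus SCAF8 IP was −0.20 (exact permutation p = 0.3) and −0.01 without replicate 3, and control IP minus parental input was −0.03 (exact permutation p = 1).

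Without members over tRNA and small RNA genes the shares were 0.437%, 0.566% and 0.468% for SCAF4 IP, 0.417%, 0.536% and 0.732% for SCAF8 IP, 0.250 to 0.352% for SCAF4 inputs and 0.284 to 0.425% for SCAF8 inputs. They were 0.216 to 0.370% for the control IPs and 0.216 to 0.547% for the parental inputs. All 3 SCAF4 IP lists then lay above all 3 SCAF4 inputs, SCAF8 IP replicate 1 lay just below the highest SCAF8 input, and 2 of the 3 parental inputs lay within the range of the IP lists. No test is given, since the members were trimmed after their values were seen.

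With all members kept, upstream antisense clusters were on average rarer after IP, relative to sense clusters in the first 3000 nt of protein-coding genes. There were 4.31, 4.55 and 3.79 upstream antisense per 100 sense clusters in the SCAF4 IP lists and 4.95, 5.07 and 6.27 in the SCAF8 IP lists. The inputs of the same lines had 5.33, 6.64 and 6.13 for SCAF4 and 7.28, 6.00 and 5.73 for SCAF8, so only the highest SCAF8 IP list reached into the range of the inputs. The difference was −0.37 on the log2 scale (two-sided exact permutation p = 0.0152, 6 lists against 6). Exact sign flips within pairs of IP and input of the same line and replicate number gave p = 0.0625, no longer past 0.05. The difference turned to 0.46 without members over tRNA and small RNA genes. The values were then 2.98 to 5.49 per 100 after IP and 1.79 to 3.67 in these inputs.

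Counting all members, sense and antisense clusters of the same list met at a minority of these promoters. In the SCAF4 and SCAF8 IP lists, 14.5 to 43.1% of the genes with an upstream antisense cluster also held a sense cluster of the same list in their first 3000 nt, and 8.63 to 21.1% of all 20046 genes did. In SCAF8 IP replicate 1 the values were 14.5 and 10.2%, and in SCAF4 IP replicate 2 they were 43.1 and 21.1%. In the inputs the shares were 11.1 to 25.7% and 2.11 to 5.08%, and in the control IPs 12.0 to 33.3% and 0.973 to 4.54%. Without members over tRNA and small RNA genes, the share among genes with an upstream antisense cluster was 15.7 to 43.3% in the IP lists. It was then 14.3 to 50.0% in the inputs, of 10 to 40 genes each. In the control IPs it was 13.6, 100 and 60.0%, of 22, 4 and 5 genes. Genes with clusters are transcribed genes, and the part of expression level was not tested.

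With all members kept, the clusters crowded toward the gene start in every kind of list. After SCAF4 and SCAF8 IP, 20.2 ± 3.16% (SD, n = 6) of a list's members lay 251 to 500 nt upstream, the fullest of the 250-nt bins, and 4.51 ± 0.818% in the bin from 2001 nt. Within 1000 nt were 58.4 ± 6.93% (SD, n = 6) after IP and 66.9 ± 5.34% (SD, n = 6) in the inputs of the same lines. The difference of −8.51 percentage points had a two-sided exact permutation p of 0.0433. It did not hold with exact sign flips within pairs of IP and input of the same line and replicate number (p = 0.156). The difference was 5.28 points in the other direction without members over tRNA and small RNA genes.

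Without members over tRNA and small RNA genes, 46.5 to 65.1% of members lay within 1000 nt in the 6 IP lists. The share was 42.3 to 59.1% in the inputs of the same lines and 33.3, 40.0 and 40.7% in the parental inputs. An even spread over the window would give 33.3%, with no allowance for positions that the membership rule leaves out. The bin from 251 to 500 nt then held 16.0 ± 2.55% (SD, n = 6) after IP and 7.85 ± 5.91% (SD, n = 9) over all inputs, with 0 to 15.9% in single inputs. On average over the IP lists the bin from 1 to 250 nt was nearly as full, at 15.7 ± 4.28% (SD, n = 6). SCAF4 IP replicate 1 had its fullest bin there, and SCAF8 IP replicates 1 and 3 had theirs from 501 to 750 nt. The bin from 251 to 500 nt was no longer the fullest of the inputs or the control IPs on average. The inputs then had only 12 to 44 members each and the control IPs 5 to 25.

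**Figure D3:**
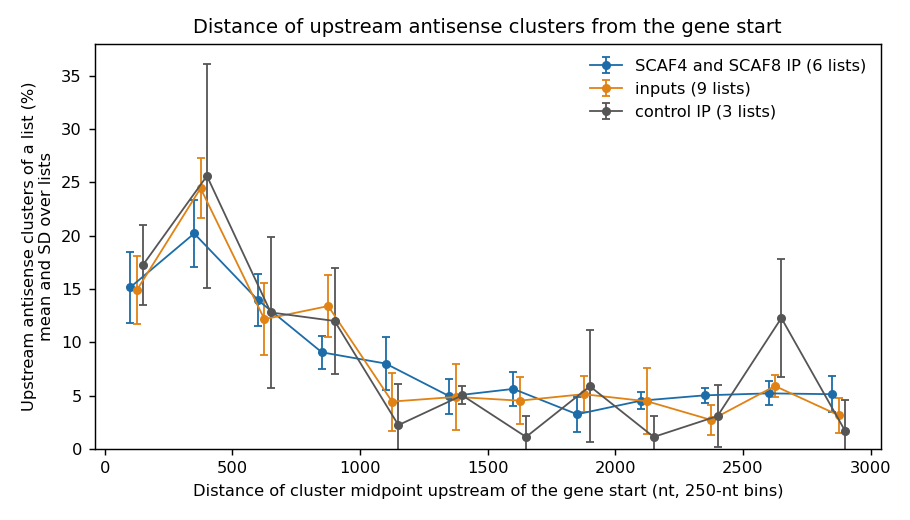
Share of a list's upstream antisense clusters (mean and SD over lists, bars cut at 0) by distance from the gene start in 250-nt bins, for 6 SCAF4 and SCAF8 IP lists, 9 inputs and 3 control IPs. In all 3 kinds of list the fullest bin on average is 251 to 500 nt upstream. Without members over tRNA and small RNA genes it is not the fullest of the inputs or the control IPs. In the IP lists it then holds 16.0% on average, against 15.7% at 1 to 250 nt. The control IPs, with 17 to 60 members each, vary most.

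Around their midpoints, upstream antisense clusters of the IP lists were richer in G and C than other clusters of the same list. GC content in 100 nt was 53.9 ± 1.62% (SD, n = 6) for members, 4.49 points above the rest, and higher in 6 of 6 lists. CGG or CGA stood in 81.8 ± 4.36% (SD, n = 6) of members, 14.9 points above the rest and higher in 6 of 6 lists, and in 51.0% of all 100-nt tiles of the upstream windows on the antisense strand (64.5% within 1000 nt). The polyA signal AAUAAA was in 1.55% of members and 3.12% of other clusters, lower in 6 of 6 lists, and in 6.45% of tiles. GGUAAG, a strong 5′ splice site, was in 1.56% and 2.53%, NCAGN with C or G at each N in 45.8% and 42.6%, and CUCC or CACC in 51.8% and 48.4%. Of all tiles, 1.42% held GGUAAG, 47.9% NCAGN and 57.6% CUCC or CACC, the last 2 above their shares of members. For GC content, CGG or CGA, AAUAAA and cluster length (the mean difference of the medians was −8.42 nt), an exact sign-flip permutation test over the 6 lists gave p = 0.03125, the smallest it can give, and 0.0547 after Benjamini-Hochberg adjustment over 7 features. None of the 7 passed 0.05 after adjustment. Only the transcribed strand was searched.

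The excess was not seen against clusters on the other side of the gene start. Set against sense clusters in the first 3000 nt of genes, members differed by −0.98 points in GC content and −0.96 points in the share with CGG or CGA (adjusted p = 0.131 and 0.469, exact sign flips). The inputs differed from their other clusters in the same direction, by 5.53 points of GC content and 22.9 points for CGG or CGA (means of 9 lists). Without members over tRNA and small RNA genes the excess of CGG or CGA was 11.1 points in the IP lists and 0.404 points in the inputs, described with no test.

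**Figure D4:**
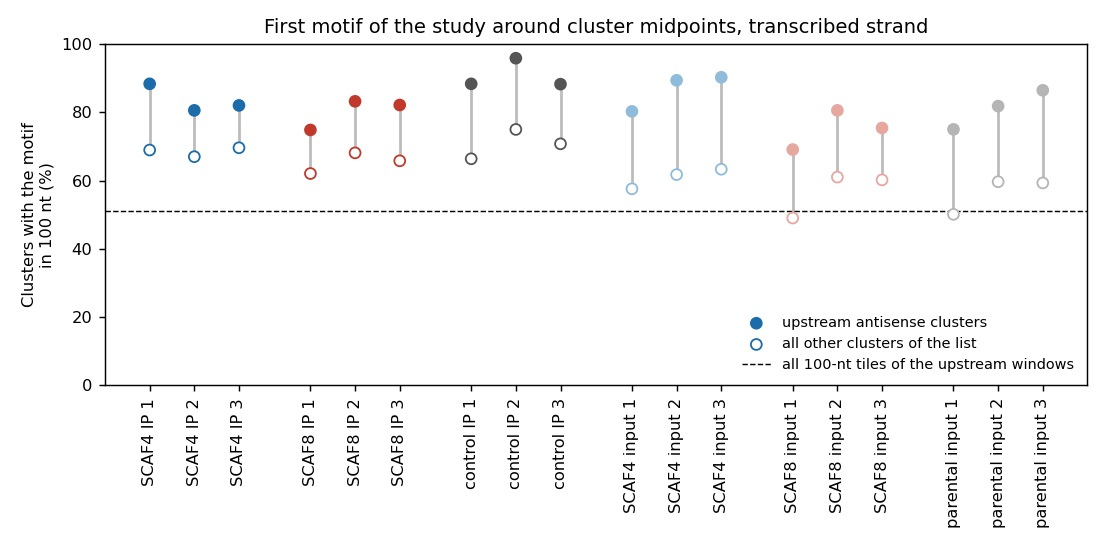
Share of clusters with CGG or CGA in 100 nt around the midpoint in each list (filled, upstream antisense clusters; open, all other clusters of the list; dashed, all 100-nt tiles of the upstream windows, 51.0%). Filled points lie above open points in all 18 lists, inputs and control IPs included.

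Other annotation at the members was compared by kind of list. 56.5% of the members after SCAF4 and SCAF8 IP lay in a noncoding gene on their strand, 51.7% in the inputs and 46.5% in the control IPs. 8.84% after IP and 6.23% in the inputs lay within 3000 nt past the end of a protein-coding gene on their own strand, and 18.2% and 10.0% inside another protein-coding gene on the opposite strand. These are pooled clusters of lists of unequal size, and no test was made.

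Members were also counted by gene group. Of 69 replication-dependent histone genes, 7 (10.1%) had one in an IP list and 7 in an input, and of all genes 1.83% and 0.634%. At H3C14 and H3C15, which encode histone H3, regions over no annotated gene were found in 8 and 6 of the 9 inputs. H2AC18 and H2AC19, H3C14 and H3C15 are near-identical copies in an inverted duplication, and the alignment could place a read of one on the other, so values at single copies are uncertain. The region upstream of H4C9 (histone H4) had clusters of all 6 IP lists and 1 input. Of 515 zinc finger (ZNF) genes 13 had a member after IP, of 88 ribosomal protein genes 2 (RPS7 and RPS21, each of their regions in 1 list), of 34 heat shock genes 2, of 12 SR protein genes 1 (SRSF1) and of 27 hnRNP genes 1 (HNRNPAB). Of 39 HOX genes only HOXA11 had members, over HOXA11-AS, the region nearest the start being in 5 IP lists and 3 inputs. None of the 25 immediate early genes did, and none of the 10 genes listed for well-characterised promoter upstream transcripts. At these no cluster was called at the unknown depth of these lists.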

How the data were processed

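PAR-CLIP was done on 36 libraries, soluble and chromatin fractions of IP and input in 3 lines. Per the labels and methods, the authors used bcl2fastq 1.8, cutadapt and Trim Galore, aligned reads to GRCh38 with Bowtie2 2.2.9, removed duplicates with Picard, joined both fractions of a replicate and called clusters with PARalyzer. The alignment settings let a read with several matches be reported once. The 18 deposited lists give position, strand and a score between 0.501 and 1 without stated meaning, used only to rank clusters, and come before the authors' removal of input and control clusters. They hold no read counts.

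Starts were read as BED starts. Genes came from GENCODE 44, tRNA genes (465, matched on either strand) from a RefSeq table. The gene start was that of the whole gene. Regions were merged at 1 nt of overlap, and consensus regions follow the rule in the methods without its step on input density per gene. Shares were compared by two-sided exact permutation of list labels and features by exact sign flips with scipy 1.17.1 and numpy 2.4.6 under Python 3.11.15, and both were checked on simulated data. Regions named are the 12 consensus regions in most IP lists and in no input or control IP, 4 for each protein alone (ties by summed cluster length), the 6 in most inputs (of 17 in all 9, those with the longest summed input clusters, none over a tRNA gene), and those of the 4 genes with most pooled regions. Members, lists and tests were chosen with earlier results of these data known. Inputs were taken from the extract of their IP, which pairs the replicate numbers. Over 2221 genes, the correlation of deviations from the group means was 0.0659 to 0.438 for 9 pairs with the same number and −0.345 to 0.195 for 18 with different numbers. Such deviations cancel within a group, so positive values for the same number go with negative ones elsewhere. Replicates 2 and 3 were not set apart throughout. SCAF4 IP 2 gave 0.0745 with input 3 and 0.0659 with input 2, and SCAF8 IP 3 gave 0.131 with input 2 and 0.113 with input 3.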

Additional observations from a re-analysis of the deposited data

How the results depend on the processing

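Values are differences on the log2 scale unless said otherwise. The share of upstream antisense clusters passed 0.05 in no comparison as reported. With the start of the canonical transcript, SCAF4 and SCAF8 IP minus their inputs turned to 0.11 and minus control IP to 0.13. With clusters at or above the list's median score these were 0.18 and 0.20, and SCAF4 IP minus its input was 0.14. Counting nucleotides, both IPs minus their inputs were 0.021. With a window of 1000 nt, SCAF8 IP minus its input was −0.015 and control IP minus parental input 0.12. Leaving out members in noncoding genes gave 0.13 for control IP minus parental input and −0.84 for both IPs minus control IP (exact permutation p = 0.0476).

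The alternative without members over tRNA and small RNA genes was chosen after seeing the data. It gave 0.73 for SCAF4 IP minus its input, 0.69 for both IPs minus their inputs, 0.91 against control IP, 0.46 for antisense over sense clusters, 5.28 points for the share within 1000 nt and a cluster length 1 nt above the rest.

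Antisense over sense clusters came to −0.12 with the canonical start, −0.10 above the median score, −0.27 by nucleotides and −0.37 with the replicate block, none past 0.05. The share within 1000 nt differed by −6.53 points with the canonical start, −1.40 above the median score, −9.05 without members in noncoding genes, −8.11 without members near an own-strand gene, −5.33 at a limit of 500 nt and −8.51 with the replicate block, none past 0.05. For both results the replicate block exchanged labels within pairs of IP and input of the same line and replicate number. The replicate block changed no other call.

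Leaving out 1 replicate at a time gave −0.41 to −0.34 for antisense over sense clusters, past 0.05 only without replicate 3, −11.5 to −6.37 points for the share within 1000 nt, not past 0.05, −0.18 to 0.067 for control IP minus parental input, 0.00029 (without replicate 3) to 0.17 for SCAF8 IP minus its input and −0.36 (without replicate 1) to −0.01 (without replicate 3) for SCAF4 IP minus SCAF8 IP. It gave 32 to 92 SCAF4, 15 to 60 SCAF8 and 93 to 186 pooled consensus regions. Both remaining lists of a protein were then needed for its own set, so the rule was stricter. With 4 lists the sign-flip test cannot go below 0.125, so the sequence features were then values only.

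Consensus regions numbered 23, 13 and 89 (SCAF4, SCAF8, pooled) when all 3 lists, or 3 of 6, were needed, 174, 146 and 286 without removal by control IP and inputs, 53, 42 and 103 with a window of 1000 nt, and 36, 32 and 82 without members in noncoding genes.

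Against sense clusters of the first 3000 nt, members differed by −0.98 points in GC content, −0.96 in CGG or CGA, −2.48 in NCAGN and −2.91 in CUCC or CACC. Without members in noncoding genes the differences from other clusters were 7.26, 21.6, 8.31, 8.23 and, for AAUAAA, −1.98 points (adjusted p = 0.0437 each, exact sign flips). Unknown read depth, unequal list sizes and the calling of clusters per list limit all counts.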
